A study of Mus musculus with 6 samples.

Results

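The genes described here encode the machinery of glucose uptake, glycolysis, lactate export and glycogen turnover, with the muscle and the ubiquitous isoforms of each enzyme. They were taken from the table by symbol from a list of 35 genes, and all 35 were among its 14016 rows. Bulk RNA sequencing with poly(A) selection was performed on quadriceps muscle 7 days after volumetric muscle loss, a surgical removal of part of the muscle. This was the control injury, in which the methods give sterile saline in the defect and no implant. Libraries came from 3 WT mice and 3 mice labelled GATA-1 mutant, the ΔdblGATA line, in which a pair of GATA sites in the Gata1 promoter is deleted throughout the animal and eosinophils are lacking. The methods give strain, sex and age only for the WT mice, which were young adult C57BL/6 females. The values used are the authors' mean log2 CPM of each gene (CPM, read counts scaled to a common library total), a single mean that pools the genotypes and whose libraries the table does not name, so that libraries beyond these 6 may have entered it. No value per mouse was analysed here, so a level has no SD, the depth of the libraries is unknown and no difference between genotypes or between genes could be tested. The authors' own genotype comparison in the same table was not used.

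Glycolysis splits glucose into pyruvate in a chain of cytosolic reactions and yields ATP without oxygen. Fast-twitch muscle fibers rely on it for short, intense contraction, feed it from glycogen stored within the fiber, and express dedicated muscle isoforms at many steps, whereas infiltrating leukocytes and stromal cells use the ubiquitous isoforms. Lactate, formed from pyruvate when glycolysis outruns respiration, leaves the fiber through monocarboxylate transporters.

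Markers of the labelled tissue were among the highest values in the table. All 11 skeletal muscle fiber markers were listed, from 7.56 log2 CPM for the slow myosin Myh7 to 14.65 for the fast myosin Myh4. Markers of other cells in the wound were listed as well, with medians of 10.16 log2 CPM for 4 fibroblast genes, 6.41 for 3 endothelial genes, 6.65 for 5 erythroid genes, 6.60 for 3 adipocyte genes, 5.73 for the 5 of 6 macrophage genes that were listed and 2.06 for 3 Schwann cell genes. The 4 genes of regenerating fibers had a median of 7.23 log2 CPM. Only 1 of 8 eosinophil markers, Ear2 at 0.13 log2 CPM, and 2 of 5 neutrophil markers were listed. Gata1 itself was not listed, and the genotype labels have no check here. In bulk tissue, fewer cells of a type and less RNA per cell cannot be told apart, and the part of each cell type in a level was not tested.

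The 35 genes lay high in the table. Their median was 7.95 log2 CPM against 4.03 for all genes, 32 were above that table median and 3 below it. The top 10% of the table, which begins at 6.57 log2 CPM, held 22 of the 35 genes, and the top 1% held 10. Summed as back-transformed means, they made up 3.85% of the total over all genes while being 0.250% of the genes, and Aldoa alone was 29.3% of their sum. Levels nevertheless spanned 13.08 log2 units, from Aldoa at 13.35 to Aldoc at 0.27 log2 CPM. The plot of all gene levels sets the pathway groups against this background, and that of single genes orders them within their role.

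**Figure D1:**
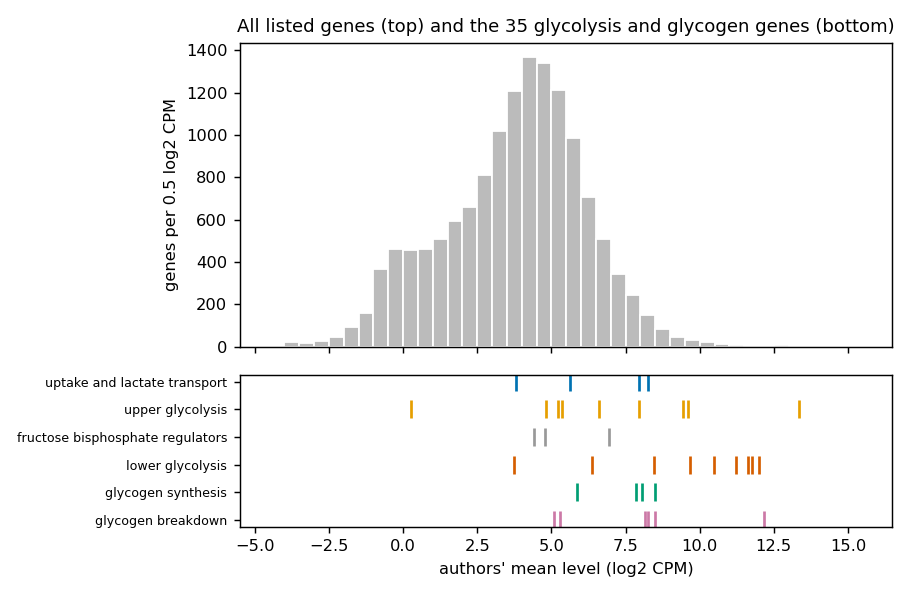
Histogram of the authors' mean log2 CPM of all 14016 listed genes (top) and the levels of the 35 glycolysis and glycogen genes by role (bottom, 1 tick per gene). Most ticks lie right of the table median of 4.03, and the rightmost is Aldoa of upper glycolysis at 13.35.

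**Figure D2:**
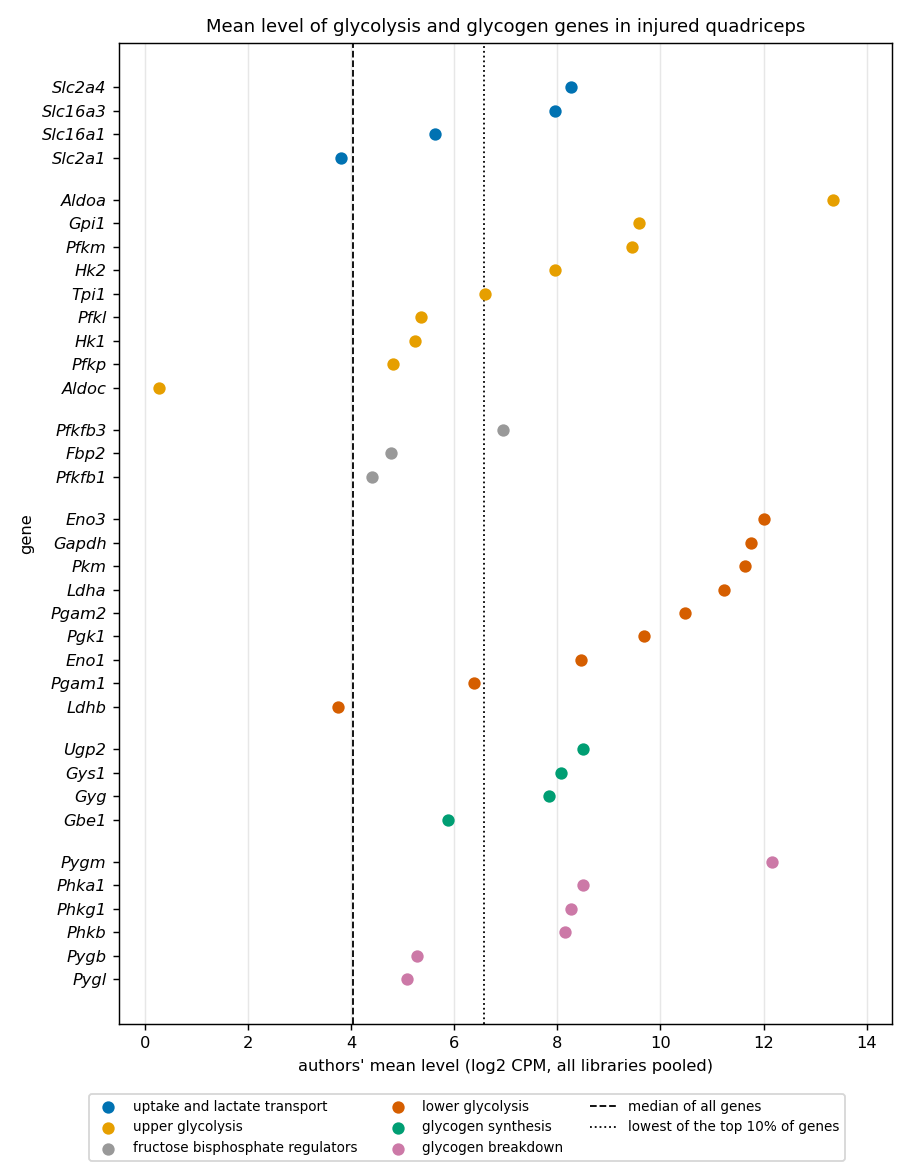
The authors' mean log2 CPM of each gene, grouped by role and ordered by level; the dashed line is the median of all genes and the dotted line the lowest level within the top 10%. Pfkm, Eno3, Pgam2 and Pygm lie far to the right of the other isoforms of their steps, Aldoc is the lowest point at 0.27, and glycogen synthesis has a single gene for each step.

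Glucose uptake was represented by Slc2a4 and Slc2a1. Slc2a4 encodes GLUT4, the transporter that moves to the surface of muscle and fat cells on insulin or contraction, and had a mean of 8.27 log2 CPM (rank 294 of 14016). Slc2a1 encodes GLUT1, the basal transporter of most cells, and at 3.81 log2 CPM it was below the table median. Longer transcripts collect more reads, so ratios between genes and shares within a step are given per kb of the longest coding transcript, while ranks and places in the table refer to log2 CPM with no length. Per kb, Slc2a4 was at 6.93 and Slc2a1 at 2.11, a ratio of 28.4, which fell to 18.6 with the median transcript length. Among other transporters of the family, Slc2a8 was at 3.61, Slc2a12 at 3.35 and Slc2a10 at 2.18 log2 CPM. With these and Slc2a3 added, Slc2a4 took 89.3% of the summed level per kb.

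Hexokinases trap glucose in the cell by phosphorylating it. Hk2, the insulin-regulated form of muscle, had 7.95 log2 CPM and Hk1, the form of most other tissues, 5.24. Per kb of transcript the levels were 5.49 and 3.14, so that Hk2 made up 83.6% of their summed level. This share depended on the transcript taken for Hk1, which has 18 annotated coding transcripts, and fell to 57.7% when the median transcript length was used. Gpi1, which turns glucose 6-phosphate into fructose 6-phosphate and has no second gene among those listed, stood at 9.59 log2 CPM (rank 101).

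Phosphofructokinase commits the sugar to glycolysis and exists as muscle, liver and platelet types. The muscle gene Pfkm had 9.45 log2 CPM (rank 111), the liver gene Pfkl 5.35 and the platelet gene Pfkp 4.81. Per kb, Pfkm was 22.2-fold above Pfkl and 35.9-fold above Pfkp, and it took 93.2% of the summed level. The ratios were 13.2 and 14.8 with the median transcript length, and 17.1 and 25.1 with the coding length. Of the 31-base words of the longest Pfkp transcript, 17.4% also occur in the gene Pitrm1, so a part of the Pfkp reads could be shared.

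The bifunctional enzymes that make and remove fructose 2,6-bisphosphate, the main activator of phosphofructokinase, lay below Pfkm. Pfkfb3, an inducible form with high kinase activity, had 6.94 log2 CPM, and Pfkfb1, the form of liver and muscle, 4.41. Per kb the levels were 4.68 and 3.50, and Pfkfb3 took 69.3% of their sum. With the other 2 bifunctional genes added, Pfkfb2 at 3.83 and Pfkfb4 at 3.46 log2 CPM, the share of Pfkfb3 was 59.1%. The opposing gluconeogenic enzyme of muscle, Fbp2, had 4.77 log2 CPM, while the liver form Fbp1 was not listed.

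Aldolase, which cleaves the 6-carbon sugar, showed the widest gap of any step. Aldoa ranked 9 of 14016 at 13.35 log2 CPM, whereas the brain isoform Aldoc was at 0.27, above only 10.2% of the table. Per kb of transcript the levels were 12.71 and -1.21. Tpi1, whose product interconverts the aldolase products, was the lowest of the glycolytic enzymes listed with a single gene, at 6.59 log2 CPM (rank 1381). Per kb it stood at 5.90, against 11.25 for Gapdh, which acts directly after it.

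The lower part of the pathway, from Gapdh to lactate, had 7 of 9 genes in the top 10% of the table. Gapdh, which oxidizes glyceraldehyde 3-phosphate and is often used as a reference transcript, had 11.76 log2 CPM (rank 28), and Pgk1, the first ATP-forming enzyme, 9.69 (rank 95). Pkm, which encodes pyruvate kinase of muscle and of proliferating cells by alternative splicing, had 11.65 (rank 33). The table sums transcripts to genes, so its splice forms could not be separated.

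Phosphoglycerate mutase is built from a muscle subunit, encoded by Pgam2, and a brain-type subunit, encoded by Pgam1. Pgam2 had 10.48 log2 CPM (rank 55) and Pgam1 6.38 (rank 1616). Per kb they were at 10.73 and 5.55, a ratio of 36.1, and Pgam2 took 97.3% of the summed level. The ratio depended on the length taken and was 17.2 with the coding length and 17.1 with no length. Their 250 bases upstream of the transcript start are shown because each gene has a single annotated start and the genes of this step lie far apart in level. The windows are chr11:5803797-5804046 on the minus strand and chr19:41911621-41911870 on the plus strand of GRCm38.p6, as given by RefSeq, 5′ to 3′, with capitals for matches on either strand to the E-box CANNTG, to the MEF2 consensus or to the hypoxia response core ACGTG.
Pgam2: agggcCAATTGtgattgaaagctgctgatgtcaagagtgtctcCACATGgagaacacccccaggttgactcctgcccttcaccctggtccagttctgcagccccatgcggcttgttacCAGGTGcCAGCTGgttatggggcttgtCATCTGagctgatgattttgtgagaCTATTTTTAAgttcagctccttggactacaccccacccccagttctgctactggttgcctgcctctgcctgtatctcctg
Pgam1: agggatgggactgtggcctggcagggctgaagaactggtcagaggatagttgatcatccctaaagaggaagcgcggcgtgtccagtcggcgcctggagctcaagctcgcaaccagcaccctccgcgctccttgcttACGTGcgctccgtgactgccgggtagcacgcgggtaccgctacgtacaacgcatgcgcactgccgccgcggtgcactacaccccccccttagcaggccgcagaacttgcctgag
The Pgam2 window held 5 E-boxes and 1 MEF2 match between 80 and 71 bases before the start. The Pgam1 window held neither and had 1 match to ACGTG. Other steps varied in E-boxes. The Eno3 window held 1 and the first window of Eno1 held 2. The Pygm window held 2, and those of Pygb and Pygl held 0. None of these windows held a MEF2 match. Of the genes in the table with a window, 62.4% held an E-box and 2.2% a MEF2 match. A link between the matches and the levels was not tested.

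Enolase followed the same order. Eno3, the muscle enolase, had 12.02 log2 CPM (rank 27) and Eno1, the ubiquitous enolase, 8.47 (rank 248). Per kb the levels were 11.37 and 7.45, a ratio of 15.2, and Eno3 took 93.8% of the summed level. Eno1 was thus the highest of the minor isoforms, well within the top 10% of the table. Its value is uncertain, since 75.6% of its 31-base words occur in the copy Eno1b, which was not listed.

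Lactate dehydrogenase transcripts were almost entirely of the A type, whose enzyme favors the reduction of pyruvate to lactate. Ldha had 11.24 log2 CPM (rank 39), and Ldhb, the heart-type gene that favors the reverse reaction, 3.75, below the table median. Per kb they were at 10.38 and 3.37, a ratio of 129, and Ldha took 99.2% of the summed level. The 250 bases before the first annotated start of Ldha, chr7:46845554-46845803 on the plus strand of GRCm38.p6, are shown because they held more matches to ACGTG than any other window of the 34 genes for which windows were found, with capitals as before.
Ldha: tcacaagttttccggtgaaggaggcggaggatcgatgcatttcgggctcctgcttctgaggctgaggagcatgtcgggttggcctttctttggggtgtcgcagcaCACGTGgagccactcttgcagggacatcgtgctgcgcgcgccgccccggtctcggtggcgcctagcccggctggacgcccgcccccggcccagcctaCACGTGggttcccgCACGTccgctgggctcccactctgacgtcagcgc
It held 5 matches to ACGTG over both strands, 4 of them within 2 palindromic copies of CACGTG, which are also E-boxes, at 145 to 140 and at 48 to 43 bases before the start. The window of the other annotated start of Ldha held no match to ACGTG.

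The lactate transporters showed a milder difference. Slc16a3, the MCT4 exporter of glycolytic fibers, had 7.95 log2 CPM, and Slc16a1, the MCT1 transporter of oxidative cells, 5.62. Per kb of transcript the levels were 5.83 and 3.47, a ratio of 5.13, which rose to 13.7 with the median transcript length. Bsg, the chaperone that both transporters need at the membrane, was at 9.09 log2 CPM.

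**Figure D3:**
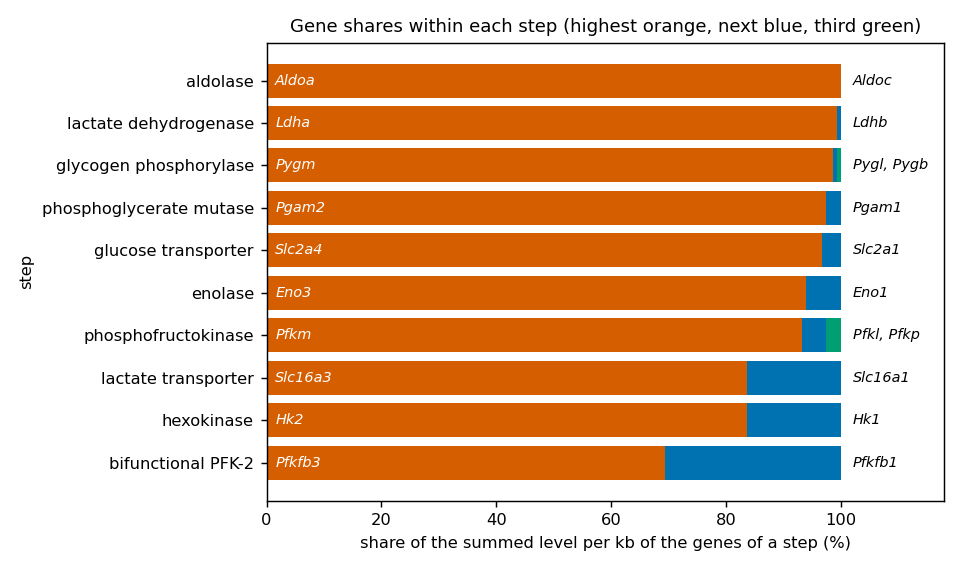
Share of each gene in the summed level per kb of the genes of its step (bars, % on a linear axis); names on the bars are the leading gene and names at the right the others. The leading gene takes from 69.3% (Pfkfb3) to 99.99% (Aldoa), and for phosphofructokinase, phosphoglycerate mutase, enolase and phosphorylase it is the gene named for muscle.

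**Figure D4:**
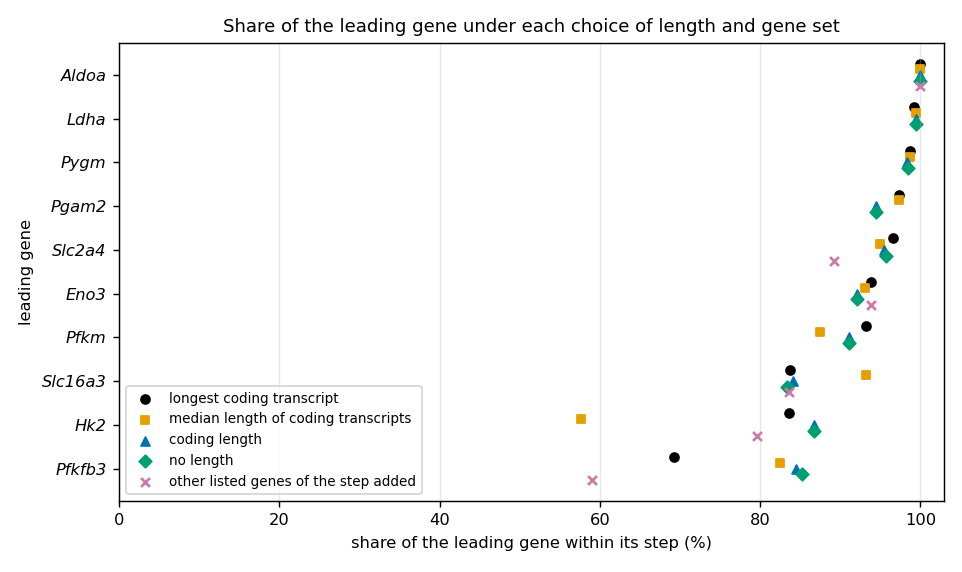
Share (%) of the leading gene of each step, with 1 symbol for each transcript length used and 1 for the addition of other listed genes of the step. The widest spread belongs to Pfkfb3, from 59.1% to 85.3%, and to Hk2, which drops to 57.7% with the median length. Aldoa, Ldha and Pygm, whose shares are close to the ceiling, barely move.

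Glycogen synthesis was represented by 4 genes, 3 of them close in level and Gbe1 lower. Ugp2, which makes the UDP-glucose donor, had 8.50 log2 CPM, the muscle glycogen synthase Gys1 8.07, the priming protein glycogenin, Gyg, 7.84, and the branching enzyme Gbe1 5.88. Per kb, Ugp2 at 7.08, Gyg at 6.90 and Gys1 at 6.19 lay within 1 log2 unit of one another, and Gbe1 was at 4.15. The liver synthase Gys2 was at 0.54 log2 CPM.

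Glycogen breakdown was dominated by Pygm, the muscle phosphorylase, at 12.15 log2 CPM (rank 26). The brain form Pygb was at 5.29 and the liver form Pygl at 5.09. Per kb, Pygm was 159-fold above Pygb and 139-fold above Pygl, and it took 98.7% of the summed level. The subunits of phosphorylase kinase, which activates phosphorylase, were the regulatory Phka1 at 8.49, the catalytic Phkg1 at 8.26 and the regulatory Phkb at 8.15 log2 CPM. Per kb they were at 5.88, 7.01 and 5.73, and 25.6% of the Phkg1 words also occur in other genes, all of them in Sumf2 among others. The liver-type subunit genes Phka2 and Phkg2 were at 4.09 and 3.81 log2 CPM.

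Other genes of the pathway were taken from a list of 52, of which 45 were listed with a median of 4.09 log2 CPM and 16 lay in the top 10% of the table. Among the highest in log2 CPM, with no length, were the phosphoglucomutase Pgm2 at 9.81 log2 CPM, the pyruvate dehydrogenase subunit Pdha1 at 9.22, Gpd1 at 9.16, which moves reducing power between cytosol and mitochondria, and Bsg. Isoforms of restricted tissues lay on both sides of the table median of 4.03. The hematopoietic Hk3 at 2.59, the neuronal Eno2 at 1.87 and the neuronal glucose transporter Slc2a3 at 1.86 log2 CPM were below it. The liver-type Phka2 at 4.09 was just above it. Among the members, Pfkl, Pfkp, Pygb and Pygl were above it and Aldoc below. Hkdc1, Pklr, Pgk2, Ldhc, Fbp1, Tigar and Slc16a11 were not listed. Among other genes that share a step with a member, Gapdhs of sperm was at 1.75 and the pyruvate transporter gene Slc16a7 at 0.17 log2 CPM. The D-lactate dehydrogenase Ldhd, which was not counted in the step of Ldha and Ldhb, was at 5.15 log2 CPM.

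Upstream windows were found for 34 of the 35 genes, Slc2a4 being the exception. In at least 1 of its windows of 250 bases, 16 of the 34 (47.1%) held ACGTG, against 24.3% of the 10365 genes of the deposited table with a window and 18.5% of all 27025 genes. Genes with several starts have more windows in which to match, and counted by window the shares were 38.0% of 50 windows and 16.6% of all 32851 windows. ACGTG was held by leading genes of a step, among them Hk2, Pfkm, Pygm, Ldha and Slc16a3. Lower genes of a step also held it, among them Pgam1, Pygb, Pygl and Slc2a1. E-boxes occurred in 67.6% of the 34 genes, 62.4% of genes in the table and 69.3% of all genes. A MEF2 match occurred in 2 of the 34, Pgam2 and Pfkfb1 (5.88%), against 2.20% of genes in the table and 3.42% of all genes. A match is a description of the letters and no sign of binding, and these counts were not tested.

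Sequence copies limit several levels. In GENCODE M21, 84.1% of the 31-base words of Gapdh, 77.2% of those of Eno1, 68.3% of those of Pgk1 and 50.9% of those of Pkm also occur in transcripts of other genes, so the values of these 4 genes are uncertain. For Gapdh the copies are partly in the table, as the pseudogene Gm7336, which shares 84.1% of the Gapdh words, is listed at 8.52 log2 CPM. Another 13 genes, including Eno3, Pgam2, Pfkm and Slc2a4, share no word with another gene. Between these lie Pgam1 with 42.1% of its words in other genes, Ldhb with 41.4%, Gpi1 with 37.3%, Ldha and Aldoa with 34.2% each and Tpi1 with 18.5%. Of the copies of Pgam1, the pseudogene Pgam1-ps2 was listed at -3.60 log2 CPM. How reads were divided among copies was not tested.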

How the data were processed

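Quadriceps muscle of 3 WT and 3 ΔdblGATA mice was sequenced at 7 dpi of a control injury. The authors quantified transcripts by pseudoalignment in Kallisto, assigned them to genes through ensembldb, filtered on more than 1 CPM in at least 3 samples, applied TMM normalization and fitted limma. The processing notes name GRCm39. The deposited log2 value used here is the authors' mean log2 CPM per gene. The remaining columns hold their genotype fold change, moderated t, p-values and log odds, which were not used, so the genotype fit fixed in the design was not made. Of the 14016 rows, 1 has no symbol.

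Members and lists were chosen with earlier results of these data known. All 35 members are named, and from the other pathway genes the 5 highest and those sharing a step, except a few not reported here. Gyg1 and Gpi, synonyms of members, were left out of that list. Lengths came from GENCODE M21 (GRCm38), matched by symbol for 13458 genes (96.0%). A level per kb is the mean minus log2 of length in kb, and a share is its power of 2 over the sum of a step. Words of 31 bases were compared with all transcripts on both strands. Calculations (Python 3.11.15, pandas 2.3.3) were tested on simulated data. Kallisto divides reads among similar transcripts by estimation, and a mean of logs understates a gene with uneven libraries. The alternatives were other lengths, other gene sets for ranking and added genes of a step.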

Additional observations from a re-analysis of the deposited data

How the results depend on the processing

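No paired analysis was possible because the column used holds no value per mouse, and for the same reason the fits leaving out each mouse, other filters and other pseudocounts were not run. With no spread known, a share was taken as moved when it changed by 10 percentage points or more. A share close to its ceiling passes this limit only if the ratio between the genes falls several-fold. With the coding length the ratio of Pgam2 to Pgam1 fell from 36.1 to 17.2. The share of Pgam2 went from 97.3% to 94.5% and was not counted as moved. In all 36 recalculations of the 10 shares the leading gene of the step was the same, and in 31 the share moved by less. For the high shares, such as those of Aldoa, Ldha, Pygm and Pgam2, this count says little about how stable the ratios are. Among those that moved, the share of Hk2 was 57.7% with the median length of coding transcripts against 83.6%. The share of Pfkfb3, 69.3% with the longest transcript, was 82.5% with the median length, 84.5% with the coding length and 85.3% with no length. With the other listed genes of the step added, an alternative chosen after seeing the data, it was 59.1%. These follow from the lengths and genes entered. The number of genes in the top 10% was 21 among protein-coding genes, 21 among genes of at least 1 log2 CPM and 22 per kb, against 22. Levels per kb moved by 1 log2 unit or more in 13 of the 35 genes with the median length and in 8 with the coding length. The depth of the libraries is unknown, so the precision of low values such as that of Aldoc could not be given.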
